A study of Mus musculus with 9 samples.

Results

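The genes described here copy the genome in S phase and keep the copy intact. They are 54 mouse genes, listed by symbol and found in the count files through their Ensembl identifiers, of 47643 genes counted in all. The list was made by function and its rule uses no measured value, but it was drawn up with earlier results of these data known. It was split into a replication arm of 36 genes and a repair arm of 18 genes, and each arm was compared separately between tumor cells with and without Yap.

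Pancreatic ductal adenocarcinoma (PDAC) cells were sorted by FACS from mouse tumors, and the RNA of each sort was counted at its 3′ ends with the QuantSeq 3′ Fwd kit. The KPF group held 6 libraries of GFP+Yap+ cells from mice that carried Trp53frt/+, Pdx-Flp, R26FSF-CreER/Dual and an oncogenic allele activated by Flp. The KPYYF group held 3 libraries of Tm+Yap- cells from mice that carried the same alleles and Yap flox/flox. Both groups thus share the oncogenic allele, the Trp53 frt allele and the CreER reporter locus, all recombined by Flp from the Pdx1 promoter, which acts in the pancreatic epithelium. Tamoxifen (TAM) in the diet activates CreER, which turns the reporter from GFP to tdTomato (Tm) and, where Yap is floxed, deletes it. Per the study, mice of both groups had received TAM, and the Tm+Yap- cells were taken from nodules that had grown back after treatment. Genotype, Yap status, reporter color, Cre recombination in the sorted cells and regrowth after Yap loss changed together between the groups, so that their parts cannot be told apart. The ages of the mice and the days of treatment for each library are not given in the sources used here. The KPF libraries are called 4269, 4435, 4504h, 4504s, 4515 and 4601 after the mouse numbers, and the KPYYF libraries 4449, 4891 and 4938. Libraries 4504h and 4504s carry the same number with different letters and may not be independent.

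DNA replication starts in G1, when the origin recognition complex, Cdc6 and Cdt1 load the Mcm2-7 helicase onto origins, a step that geminin blocks later in the cycle. In S phase Cdc45 and the GINS complex join the helicase, primase and the replicative polymerases copy the strands, and the Pcna clamp, its loader, Rpa, Fen1 and Lig1 complete them. Homologous recombination repairs breaks and collapsed forks by copying the sister chromatid, with Brca1 and Brca2 at its center, while the Fanconi anemia proteins clear crosslinks and the Atr-Chek1 pathway slows the fork under stress. Many of these genes are targets of E2F transcription factors, and their transcripts are enriched in cells in S phase, so that their level in a tumor sample is often read together with markers of dividing cells.

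The libraries held 8116539 to 9635514 counts on genes. Yap1 had 287 to 1473 counts in the KPF libraries and 6, 26 and 65 in the KPYYF libraries. Levels below are in CPM, counts scaled to the size of each library after TMM, a normalization that centers most genes on each other, and 3 counts corresponded to 0.292 to 0.437 CPM. Libraries stood apart in ways other than genotype. Summed CPM of 13 immune markers were 8420 in KPF 4601 and 2550 in KPF 4504s against 420 to 801 in the others, and those of 7 acinar markers were 19200 in KPF 4504s and 5320 in KPYYF 4449 against 64.4 to 956. Xist, expressed from the inactive X chromosome, had 71 to 159 counts in KPF 4269, 4515 and 4601 and 3452 to 16108 in the other 6 libraries, the 3 KPYYF libraries among them. Results that rest on the libraries with many immune or acinar transcripts are given with and without them, as are those within the libraries with many Xist counts.

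The promoters of the genes were examined first, because genes of S phase are known to share short promoter words. RefSeq windows of 300 bases on GRCm38.p6, from 250 before to 50 after the start site, were at hand for 42 of the 54 genes, 28 of the replication arm and 14 of the repair arm. Tipin has no entry. An E2F word (TTTGGCGC, TTTCGCGC, TTTCCCGC or TTTGCCGC, on either strand) was found in 17 of the 42 genes, or 40.5%, against 2.6% of 27025 genes with such windows. It was present in 13 of 28 replication genes (46.4%) and 4 of 14 repair genes (28.6%). The word CCAAT, read by NF-Y, was found on either strand in 26 of the 42 genes (61.9%, against 41.1% of all genes). The CHR words TTTGAA and TTCGAA, typical of genes that peak in G2 and mitosis, were found in 9 (21.4%, against 21.7%), and GGAATG, the word of the TEAD factors that Yap binds, in 4 (9.52%, against 16.6%), all of them replication genes (Mcm3, Rpa2, Lig1 and Chaf1b). The shares of all genes cover every gene with a window, not matched to the 54 genes for expression or base composition. A word in a window is a match of letters and was not tested for binding.

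Windows of 5 genes are shown because the results turn on them: Cdt1 and Pold2 rose, Brca2 had the smallest p of the homologous recombination genes, and Mcm5 and Mcm2 are subunits of 1 complex with values on opposite sides of 0. E2F and CCAAT words are in capitals on the strand of the gene. Cdt1 (chr8:122567765-122568064, plus strand) holds 1 E2F word, Pold2 (chr11:5878207-5878506, minus strand) 3 CCAAT words and no E2F word, Mcm5 (chr8:75109259-75109558, plus strand) 2 E2F words that overlap each other and 3 CCAAT words, Mcm2 (chr6:88898731-88899030, minus strand) 1 CCAAT word and no E2F word, and Brca2 (chr5:150522371-150522670, plus strand) 1 E2F word.
Cdt1: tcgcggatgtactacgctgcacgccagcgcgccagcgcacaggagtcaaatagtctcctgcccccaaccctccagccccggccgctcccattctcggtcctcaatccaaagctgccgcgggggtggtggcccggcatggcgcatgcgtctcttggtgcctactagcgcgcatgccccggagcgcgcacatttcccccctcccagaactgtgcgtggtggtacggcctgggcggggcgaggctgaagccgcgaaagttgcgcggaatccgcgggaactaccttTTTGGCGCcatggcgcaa
Pold2: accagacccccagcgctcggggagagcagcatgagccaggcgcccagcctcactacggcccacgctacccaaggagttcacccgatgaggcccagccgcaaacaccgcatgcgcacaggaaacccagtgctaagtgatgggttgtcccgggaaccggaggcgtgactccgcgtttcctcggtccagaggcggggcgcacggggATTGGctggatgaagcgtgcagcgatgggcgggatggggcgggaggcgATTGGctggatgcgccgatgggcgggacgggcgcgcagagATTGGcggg
Mcm5: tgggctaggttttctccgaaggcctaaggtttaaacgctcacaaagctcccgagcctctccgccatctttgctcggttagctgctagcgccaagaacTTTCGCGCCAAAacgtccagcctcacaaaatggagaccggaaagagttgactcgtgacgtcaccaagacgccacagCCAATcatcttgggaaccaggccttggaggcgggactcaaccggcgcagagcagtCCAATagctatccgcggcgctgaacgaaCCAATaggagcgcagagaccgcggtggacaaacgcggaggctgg
Mcm2: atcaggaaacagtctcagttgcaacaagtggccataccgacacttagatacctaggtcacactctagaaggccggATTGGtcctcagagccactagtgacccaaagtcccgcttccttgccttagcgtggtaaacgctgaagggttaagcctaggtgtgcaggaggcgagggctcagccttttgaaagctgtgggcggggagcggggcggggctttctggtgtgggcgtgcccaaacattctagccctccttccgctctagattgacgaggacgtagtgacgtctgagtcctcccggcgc
Brca2: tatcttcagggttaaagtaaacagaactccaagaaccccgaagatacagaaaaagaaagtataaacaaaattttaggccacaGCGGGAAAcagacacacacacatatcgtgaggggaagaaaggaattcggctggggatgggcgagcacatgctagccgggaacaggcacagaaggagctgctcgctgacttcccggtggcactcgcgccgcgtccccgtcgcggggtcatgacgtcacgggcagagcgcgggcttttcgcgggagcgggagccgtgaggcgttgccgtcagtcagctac
The E2F word of Cdt1 begins 32 bases after the annotated start site and that of Brca2 at -168. Pold2 has another RefSeq window from 5877614 to 5877913 on the same strand, without an E2F or CCAAT word.

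All 54 genes had at least 100 counts over the 9 libraries and were tested. Fitted values were above 0 (KPYYF over KPF) in 48 genes and below 0 in 6, while 46.7% of the 14105 genes tested lay above 0. The quasi-likelihood test of edgeR, with p values adjusted by Benjamini-Hochberg, called 3 of the 54 at an adjusted p under 0.05, and all of them rose: Cdt1 and Pold2 in the replication arm and Tipin in the repair arm. Of all genes tested, 0.305% rose at that threshold and 0.794% fell, and no gene of either arm fell. At an unadjusted p under 0.05, 12 of the 54 genes (22.2%) were higher and 0 were lower, against 6.10% and 10.0% of all genes. DESeq2 and limma-voom also called 0 of them lower at either threshold. The 3 KPYYF libraries lay above all 6 KPF libraries in 10 genes (18.5%) and below them in 0, against 3.92% and 5.18% of all genes. The median log2 fold change was 0.75, beside -0.07 over all genes tested.

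**Figure D1:**
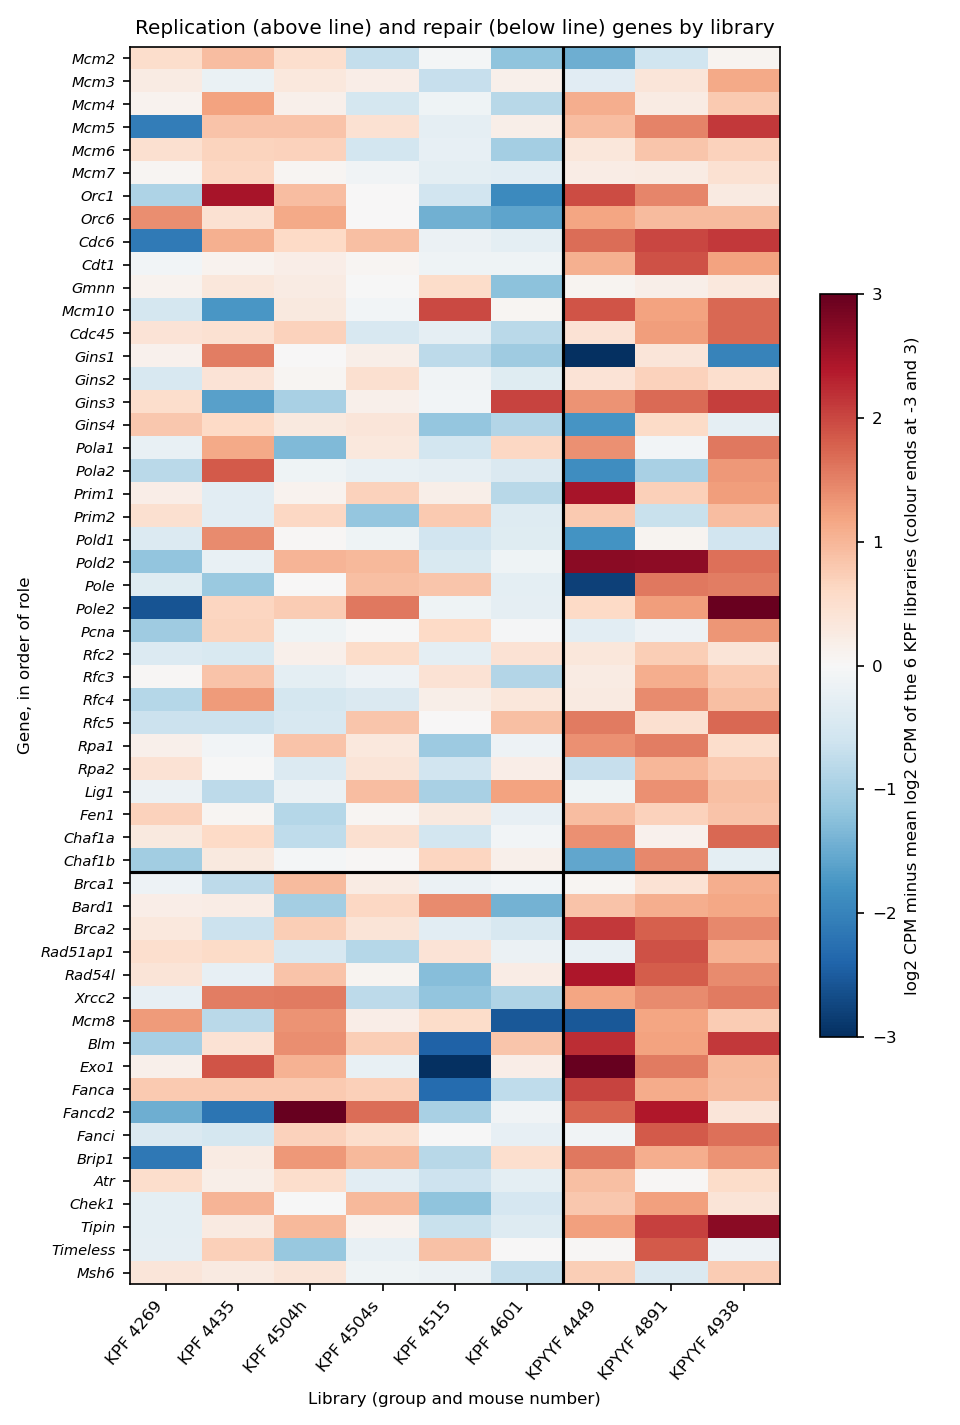
Heat map of the 54 genes (vertical axis, in order of role, replication above the horizontal line and repair below it) in the 6 KPF and 3 KPYYF libraries (horizontal axis, split by the vertical line). Color gives log2 CPM minus the mean log2 CPM of the 6 KPF libraries. Most cells of the KPYYF columns are red, and the deepest blue ones there are those of Gins1, Pole and Mcm8 in KPYYF 4449.

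The median of each arm lay above that of all genes tested. In the replication arm 31 genes were above 0 and 5 below, with a median of 0.64 and a range from -1.25 to 2.23, and 9 genes (25.0%) were higher at an unadjusted p under 0.05. In the repair arm 17 genes were above 0 and 1 below, with a median of 0.99 and a range from -0.0016 to 2.04, and 3 genes (16.7%) were higher at that threshold. The summed CPM of the 36 replication genes were 894 to 1440 in KPF (median 1130) and 1480, 1860 and 1950 in KPYYF 4449, 4891 and 4938. For the 18 repair genes the sums were 100 to 200 in KPF (median 141) and 309, 303 and 319 in KPYYF. The KPYYF libraries thus lay above all KPF libraries in both sums, narrowly for replication and by a wider margin for repair. In bulk RNA of sorted cells, a larger share of cells in S phase and more RNA of these genes per cell cannot be told apart. The difference between the arms was not tested.

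Of the origin licensing genes, Cdt1 alone passed the adjusted threshold. It is the factor that brings Mcm2-7 to origins and is destroyed once S phase begins. Its levels in KPF were 27.8 CPM at the lowest, 30.4 at the median and 35.0 at the highest, and in KPYYF 64.4, 116 and 70.6 in libraries 4449, 4891 and 4938. The 6 KPF libraries thus lay close together and every KPYYF library was well above them. Cdt1 rose 2.72-fold (log2 fold change 1.44 ± 0.30 SE, adjusted p = 0.0357). The exact permutation test gave p = 0.0119, which is the smallest that 84 divisions of 9 libraries allow. The call was lost without any single library other than KPYYF 4449 (adjusted p 0.0528 to 0.170, the highest without KPYYF 4891), and the log2 fold change stayed between 1.13 and 1.61 in all alternatives. Cdc6, which loads the helicase together with Cdt1, was at 1.07 to 11.5 CPM in KPF and 17.6, 22.1 and 24.0 in KPYYF, without overlap (1.66 ± 0.66, adjusted p = 0.225). Geminin (Gmnn), the inhibitor of Cdt1, was at 10.8 to 37.5 CPM in KPF and 27.1 to 31.6 in KPYYF (0.10 ± 0.41). Orc1 and Orc6, subunits of the origin recognition complex, had values of 0.69 ± 1.11 and 0.63 ± 0.60 and overlapped between groups. Orc1 was highest in KPF 4435 (13.4 CPM, against 0.437 to 4.50 in the other KPF libraries and 2.74 to 9.38 in KPYYF), and without that library its log2 fold change was 1.67. In this role 5 of 5 genes were above 0.

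**Figure D2:**
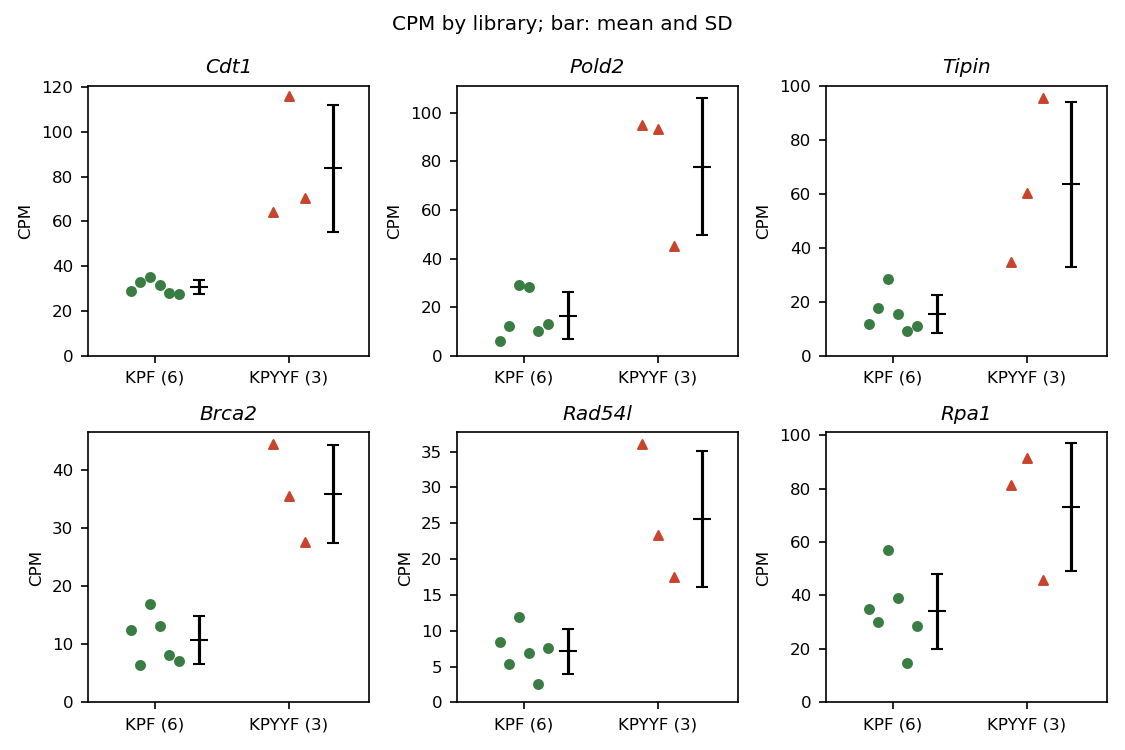
CPM (vertical axes, from 0) of Cdt1, Pold2, Tipin, Brca2, Rad54l and Rpa1 in each library of KPF (circles, 6) and KPYYF (triangles, 3), with the mean and SD beside the points. Groups are separate in all panels but that of Rpa1, where KPYYF 4938 (45.9 CPM) lies below the highest KPF library (57.1 CPM).

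The Mcm2-7 helicase, the motor that opens the double strand, is a ring of 6 different subunits. Of these, 5 subunits were above 0 and 1 was below, and only Mcm5 had an unadjusted p under 0.05 (0.02). Mcm5 was at 6.23, 33.8 and 49.0 CPM at the lowest, median and highest KPF library and at 51.4, 75.6 and 117 in KPYYF 4449, 4891 and 4938. All KPYYF libraries lay above all KPF libraries, the first of them narrowly (1.34 ± 0.51, adjusted p = 0.209). Mcm2 was at 18.2, 50.6 and 81.3 CPM in KPF and at 15.3, 28.0 and 44.7 in KPYYF. All 3 KPYYF libraries were thus under the KPF median and the groups overlapped (-0.71 ± 0.51, adjusted p = 0.54).

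The other 4 subunits of the ring overlapped between the groups. Mcm3 was at 54.0, 98.8 and 109 CPM in KPF and at 68.9, 113 and 193 in KPYYF (0.47 ± 0.34, adjusted p = 0.544). Mcm4 was at 43.7, 78.4 and 182 CPM in KPF and at 167, 93.6 and 135 in KPYYF (0.59 ± 0.40, adjusted p = 0.52). The highest value of Mcm3 was that of KPYYF 4938, and the highest of Mcm4 that of KPF 4435. Mcm6 was at 65.6, 149 and 215 CPM in KPF and at 168, 238 and 217 in KPYYF (0.50 ± 0.37, adjusted p = 0.563). Mcm7 was at 56.0, 68.4 and 107 CPM in KPF and at 81.1, 82.7 and 95.5 in KPYYF (0.27 ± 0.29, adjusted p = 0.713). For both of these genes the KPYYF libraries lay in or just above the upper range of the KPF libraries. Mcm7 shares exon positions with Cops6 and Ap4m1 on the opposite strand.

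**Figure D3:**
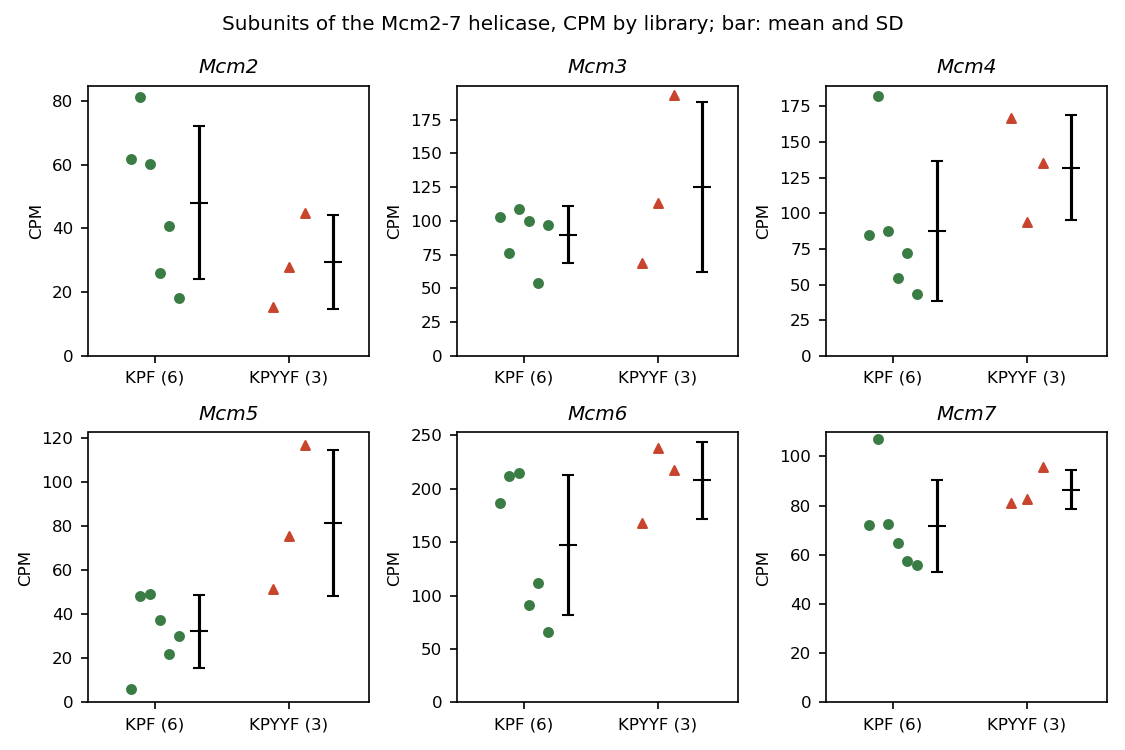
CPM (vertical axes, from 0) of Mcm2 to Mcm7 in each KPF (circles, 6) and KPYYF (triangles, 3) library, with the mean and SD beside the points. Only in the Mcm5 panel are the groups separate, and in the Mcm2 panel the KPYYF points (15.3 to 44.7 CPM) all lie under the KPF median of 50.6 CPM.

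Genes that turn the loaded helicase into an active one gave mixed values, with 4 of 6 above 0. Cdc45, the helicase cofactor, was at 7.58 to 21.7 CPM in KPF and 18.3, 32.1 and 45.0 in KPYYF (1.15 ± 0.47, adjusted p = 0.246). Mcm10, which helps to fire the assembled helicase, had a value of 1.20 ± 0.68. The 4 subunits of GINS pointed in different directions, with Gins2 at 0.50 ± 0.33 and Gins3 at 1.34 ± 1.15, and Gins4 at -0.38 ± 0.57. Gins1 had the lowest value of all 54 genes: it was at 1.89, 4.38 and 12.5 CPM in the lowest, median and highest KPF library and at 0, 5.47 and 0.877 in KPYYF 4449, 4891 and 4938 (-1.25 ± 1.36, adjusted p = 0.721). One KPYYF library without a count thus stood beside one above the KPF median, at a gene with 344 counts in all.

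Among primase and the polymerases, Pold2 rose, and its partner Pold1 had a value below 0. Pold2, the small subunit of polymerase delta that binds the catalytic subunit, was at 6.23, 12.7 and 29.1 CPM in KPF and at 94.9, 93.1 and 45.2 in KPYYF 4449, 4891 and 4938. The lowest KPYYF library was above the highest KPF library. Pold2 rose 4.69-fold (2.23 ± 0.48, adjusted p = 0.0444, exact permutation p = 0.0119), the largest value of the 54 genes. The call was lost without any single library other than KPF 4504h (adjusted p 0.0566 to 0.141, the highest without KPYYF 4891), and the log2 fold change stayed between 1.75 and 2.50. Pold1, the catalytic subunit of the same polymerase, was at 13.4 to 54.1 CPM in KPF and at 5.58, 21.0 and 13.3 in KPYYF (-0.78 ± 0.60, adjusted p = 0.577). Its highest value was that of KPF 4435, and without that library the log2 fold change was -0.31.

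Prim1, the catalytic subunit of primase, was at 2.62 to 7.86 CPM in KPF and 27.9, 8.09 and 11.7 in KPYYF, without overlap but with 1 KPYYF library just above the KPF range (1.64 ± 0.65, adjusted p = 0.227). Prim2, the large primase subunit, had a value of 0.36 ± 0.60. Polymerase alpha, which extends the primers, had 0.91 ± 0.54 for its catalytic subunit Pola1 and -0.22 ± 0.95 for Pola2. Polymerase epsilon of the leading strand had 0.87 ± 0.93 for Pole and 1.63 ± 1.35 for Pole2, with Pole at 0.475 CPM in KPYYF 4449 and at 14.3 and 14.0 in the other KPYYF libraries. Pole2 was at 0 to 3.76 CPM in KPF and at 1.78, 2.95 and 10.1 in KPYYF, and without the highest of these, KPYYF 4938, its log2 fold change was 0.57. The sums of these 8 genes were 63.2 to 141 CPM in KPF and 165 to 195 in KPYYF.

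The clamp and its loader had 5 of 5 genes above 0 and none past the adjusted threshold. Pcna, the sliding clamp, was at 12.5 to 42.0 CPM in KPF and at 21.3, 23.7 and 67.1 in KPYYF (0.39 ± 0.48), and its annotated pseudogenes Pcna-ps1 and Pcna-ps2 make its count uncertain. Only KPYYF 4938 was above the KPF range, and without it the log2 fold change was -0.34. Of the loader subunits, Rfc5 had 1.21 ± 0.47 (adjusted p = 0.22), with 11.7 to 34.7 CPM in KPF and 54.7, 25.6 and 61.4 in KPYYF. Rfc2, Rfc3 and Rfc4 had 0.44 ± 0.32, 0.65 ± 0.39 and 0.77 ± 0.66.

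All 4 genes of strand processing were above 0. Rpa1, the large subunit of the protein that coats single-stranded DNA, was at 14.8, 32.5 and 57.1 CPM in KPF and at 81.5, 91.4 and 45.9 in KPYYF. Only KPYYF 4938 overlapped with KPF (1.10 ± 0.40, adjusted p = 0.187, exact permutation p = 0.0357). Rpa2 had 0.48 ± 0.40. Fen1, which trims the flaps of Okazaki fragments, was at 10.4 to 31.2 CPM in KPF and 36.6, 31.3 and 35.1 in KPYYF, so that the groups were separate by a small gap (0.76 ± 0.40, adjusted p = 0.376). Lig1, which seals the nicks, was at 42.2 to 190 CPM in KPF and 75.2, 214 and 155 in KPYYF (0.60 ± 0.49). The highest KPF values of Lig1, 190 and 158 CPM, were those of KPF 4601 and 4504s, the libraries with many immune transcripts, and without these and KPYYF 4449 the value was 1.68 with an adjusted p of 0.0436, a setting chosen after the data were seen.

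Chromatin assembly factor 1 places histones behind the fork. Its large subunit Chaf1a was at 12.3, 22.8 and 31.8 CPM in KPF and at 54.6, 23.1 and 69.7 in KPYYF (1.14 ± 0.44, adjusted p = 0.214). KPYYF 4891 lay in the KPF range and the other KPYYF libraries above it. Chaf1b was at 4.28 to 14.3 CPM in KPF and at 2.97, 25.3 and 7.45 in KPYYF 4449, 4891 and 4938 (0.30 ± 0.70). Its highest KPYYF library was thus 4891, the lowest of the 3 for Chaf1a. Without KPYYF 4891 its log2 fold change was -0.89.

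In the repair arm, the only gene past the adjusted threshold belonged to the fork rather than to recombination. Tipin, the partner of Timeless in the complex that protects stalled forks, was at 9.08, 13.7 and 28.5 CPM in KPF and at 34.7, 60.6 and 95.8 in KPYYF 4449, 4891 and 4938. All KPYYF libraries lay above all KPF libraries. Tipin rose 4.07-fold (2.02 ± 0.44, adjusted p = 0.0433, exact permutation p = 0.0119). The call was lost without any single library other than KPF 4504h and KPYYF 4449 (adjusted p 0.0661 to 0.196, the highest without KPYYF 4938), and the log2 fold change stayed between 1.61 and 2.32. Timeless was at 3.88 to 16.3 CPM in KPF and at 9.02, 31.8 and 7.89 in KPYYF (0.74 ± 0.64, adjusted p = 0.632), and without KPYYF 4891 it was at -0.20. The checkpoint kinases Atr and Chek1 had 0.47 ± 0.48 and 0.65 ± 0.79 and overlapped between groups.

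Across the libraries with many Xist counts alone (3 of each group), none of Cdt1, Pold2 and Tipin passed the threshold (log2 fold changes 1.35, 1.75 and 1.65, adjusted p = 0.201, 0.201 and 0.226). Without the libraries with many immune or acinar transcripts (KPF 4504s, KPF 4601 and KPYYF 4449), the values were 1.61, 2.29 and 2.25 (adjusted p = 0.0618, 0.0905 and 0.0581). The log2 fold changes were thus smaller than those over all 9 libraries in the first setting and no smaller in the second, and both settings have fewer libraries. With 4504h and 4504s counted as 1 library, Pold2 passed (adjusted p = 0.0412) and Cdt1 and Tipin were at 0.0575 and 0.051.

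Of the 9 genes of homologous recombination 8 were above 0, and the values closest to the threshold were those of Brca2 and Rad54l. Brca2, a mediator of strand exchange, was at 6.35, 10.3 and 17.0 CPM in KPF and at 44.5, 35.5 and 27.5 in KPYYF. Rad54l, a DNA motor of strand exchange, was at 2.55, 7.21 and 11.9 CPM in KPF and at 36.0, 23.3 and 17.5 in KPYYF. In both genes every KPYYF library lay above every KPF library, and KPYYF 4449 was the highest. The log2 fold changes were 1.74 ± 0.45 (adjusted p = 0.0863, exact permutation p = 0.0119) for Brca2 and 1.84 ± 0.55 (adjusted p = 0.12, exact permutation p = 0.0119) for Rad54l. Neither passed the adjusted threshold. Exons of Rad54l overlap those of Lrrc41 on the other strand, and how the counting treated strand is not given in the sources used here.

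Exo1, the nuclease of end resection, had the largest value of the repair arm, at 0, 1.87 and 6.56 CPM in the lowest, median and highest KPF library and 22.9, 5.25 and 3.40 in KPYYF 4449, 4891 and 4938. One library carried this difference (2.04 ± 1.17, adjusted p = 0.424), and without KPYYF 4449 the log2 fold change was 0.76. The helicase Blm, which unwinds recombination intermediates, was at 0.443, 5.15 and 9.10 CPM in KPF and 16.3, 7.98 and 15.1 in KPYYF, where only KPYYF 4891 overlapped with KPF (1.51 ± 0.84, adjusted p = 0.408). Brca1 and its partner Bard1 had 0.50 ± 0.66 and 0.76 ± 0.64, and Rad51ap1, which promotes strand pairing, had 1.08 ± 0.68. Xrcc2, a further recombination factor, had 0.99 ± 1.17. Mcm8, which forms a helicase with Mcm9 in recombination and is no subunit of the Mcm2-7 ring, was at 0, 1.46 and 3.07 CPM in KPF and 0, 2.73 and 1.97 in KPYYF (-0.0016 ± 1.63). At 134 counts in all it was the least counted of the 54 genes, and a difference of the size seen for Rad54l was not detectable at this depth.

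The 4 Fanconi anemia genes were above 0 and none had an unadjusted p under 0.05. Fanca, part of the core complex, was at 0.553 to 6.35 CPM in KPF and 15.3, 8.09 and 7.12 in KPYYF, without overlap (1.14 ± 0.85). Fanci and Fancd2, which the core complex modifies as a pair, had 1.35 ± 0.94 and 0.57 ± 1.27. For Fancd2 a single KPF library, 4504h, was at 16.1 CPM against 0.205 to 6.04 in the other KPF libraries, and without it the log2 fold change was 1.77. The helicase Brip1, which binds Brca1, had 1.00 ± 0.73. Msh6, the mismatch repair gene of the list, was at 15.0 to 32.4 CPM in KPF and 41.4, 18.3 and 42.6 in KPYYF (0.41 ± 0.41).

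**Figure D4:**
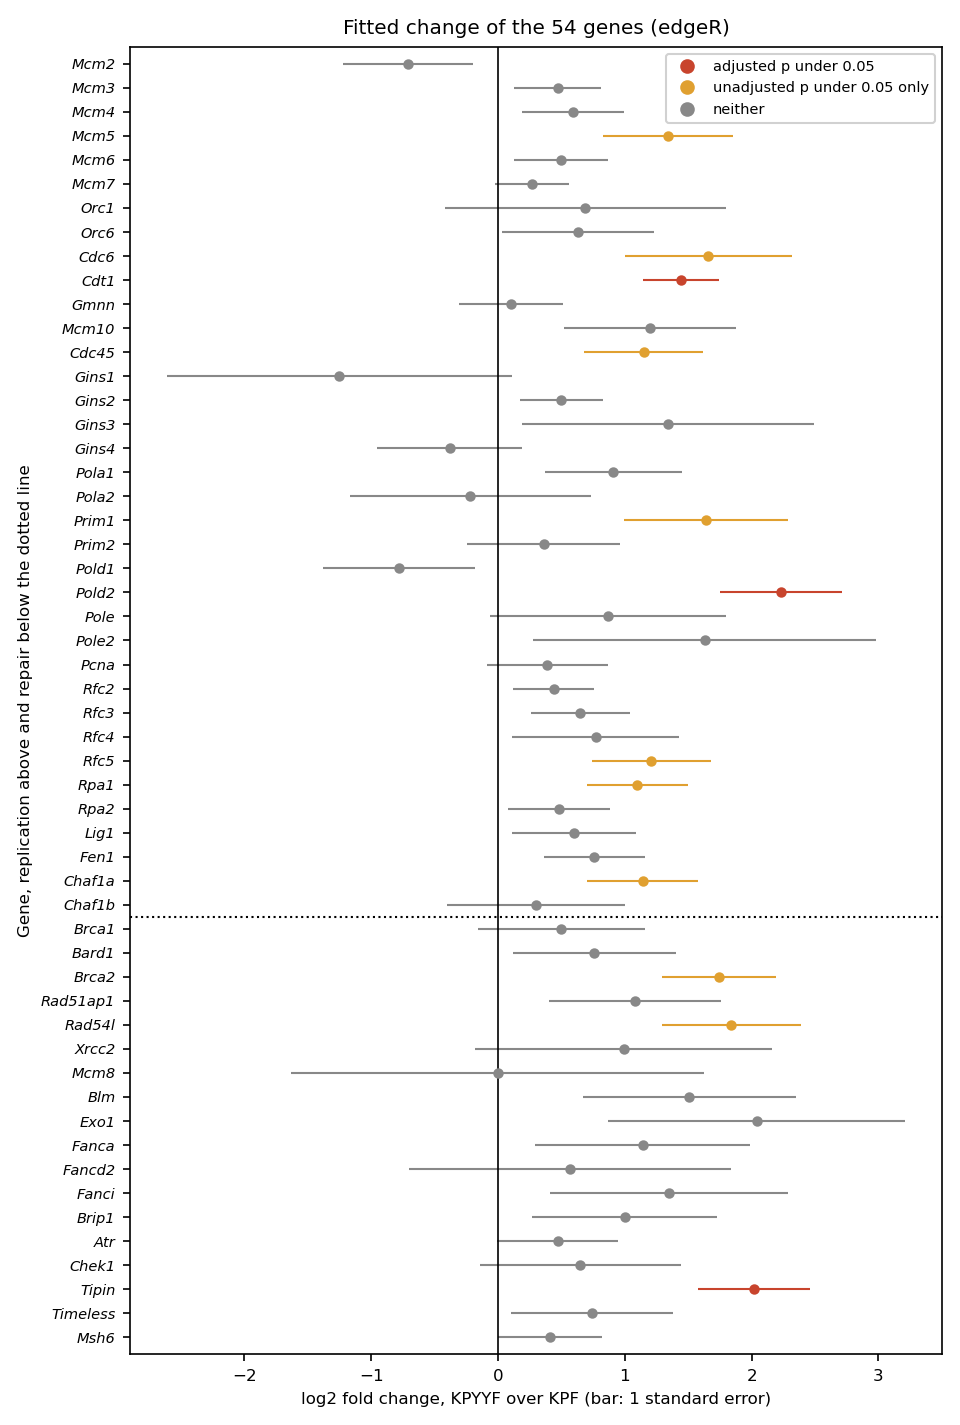
Fitted log2 fold change of KPYYF over KPF (horizontal axis) with 1 standard error for each of the 54 genes (vertical axis), replication above and repair below the dotted line. Red marks Cdt1, Pold2 and Tipin (adjusted p under 0.05), orange the 9 other genes with an unadjusted p under 0.05, and gray the rest, and 48 of 54 points lie to the right of 0.

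The libraries did not contribute equally. A KPYYF library was the highest of the 9 in 39 of the 54 genes (72.2%, against 38.4% of all genes tested) and the lowest in 8 (14.8%, against 40.2%). All 8 of these lowest values were those of KPYYF 4449, and all were in the replication arm (Mcm2, Gins1, Gins4, Pola2, Pold1, Pole, Rpa2 and Chaf1b). In the repair arm KPYYF 4449 was the highest library in 7 of 18 genes, and no KPYYF library was the lowest, apart from the shared 0 of Mcm8 in KPF 4601 and KPYYF 4449. The median log2 difference of KPYYF 4449 from the KPF mean was 0.43 over the replication genes and 1.04 over the repair genes.

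Exons of 17 of the 54 genes overlap those of another annotated gene with at least 1 count, on the opposite strand. If counting ignored strand, reads at the shared positions could not be assigned to 1 gene. Reads set aside as ambiguous took 0.231 to 0.312% of a library. Those 17 genes had a median of 0.76 and none passed the adjusted threshold. The 37 genes without such an overlap had a median of 0.69, 31 of them above 0, and Cdt1, Pold2 and Tipin were among them.

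Genes of the same pathways outside the 54 were taken from lists made by function. Of 36 other replication genes, 32 were above 0 and none passed the adjusted threshold (median 0.61). At an unadjusted p under 0.05, 5 were higher (13.9%) and 0 were lower. Dbf4, which activates the Cdc7 kinase at origins, was at 37.3 to 79.9 CPM in KPF and 69.5, 128 and 121 in KPYYF (0.96 ± 0.33, adjusted p = 0.168). Clspn, the adaptor between Atr and Chek1, was at 3.79 to 23.6 CPM in KPF and 24.3, 54.6 and 38.9 in KPYYF, without overlap (1.46 ± 0.55, adjusted p = 0.214). Rnaseh2c, a subunit of the RNase that removes ribonucleotides from DNA, and Orc2 had 0.82 ± 0.29 and 1.12 ± 0.43. Of 47 other repair genes 44 were tested, with 38 above 0 and a median of 0.47, and 3 were higher (6.82%) and 1 was lower at an unadjusted p under 0.05, beside 6.10% and 10.0% of all genes tested. The share of higher genes was near that of all genes. Higher were Fance of the Fanconi core complex (1.07 ± 0.35), the break sensor Rad50 (0.84 ± 0.36) and the kinase Chek2 (1.36 ± 0.59), and below 0 the nuclease Fan1. Fan1 had no count in KPYYF and in KPF 4601 and 103 counts in the other KPF libraries. With 3 counts in each KPYYF library taken as the limit, the KPF mean was 5.34-fold that limit. This bound leaves out the spread between libraries, and Fan1 did not pass the adjusted threshold (adjusted p = 0.192).

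Of the 9 genes that supply deoxynucleotides, 8 were above 0 and Dut passed the adjusted threshold. Dut, the enzyme that keeps uracil out of DNA, was at 37.3 to 106 CPM in KPF and 261, 166 and 181 in KPYYF. All KPYYF libraries were above all KPF libraries, and Dut rose 2.95-fold (1.56 ± 0.33, adjusted p = 0.0422). The call was lost without any single library other than KPF 4601 (adjusted p 0.0573 to 0.105, the highest without KPYYF 4938). Rrm2, the regulated subunit of ribonucleotide reductase, was at 13.6 to 50.6 CPM in KPF and 75.0, 26.5 and 36.3 in KPYYF (0.49 ± 0.47, adjusted p = 0.675). Of 18 genes of the E2F, Rb and DREAM transcription complexes, 14 were above 0. At an unadjusted p under 0.05, 2 were higher (11.1%, against 6.10% of all genes tested) and 0 were lower. The 2 higher genes were the activator E2f1 (1.76 ± 0.58, adjusted p = 0.159) and the repressor E2f6 (1.10 ± 0.44, adjusted p = 0.227).

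Markers of dividing cells were high in the same libraries as both arms. Of 11 such markers, 11 were above 0 with a median of 1.24, but none passed the adjusted threshold. At an unadjusted p under 0.05, 8 were higher (72.7%, against 6.10% of all genes tested). In 7 the KPYYF libraries lay above all KPF libraries (63.6%, against 3.92%). Summed CPM of the 11 markers were 249 to 610 in KPF and 871, 1210 and 1210 in KPYYF 4449, 4891 and 4938. The smallest adjusted p were those of cyclin A2 (Ccna2, 1.90 ± 0.42, adjusted p = 0.0514), of the mitotic kinase Plk1 (1.71 ± 0.39, adjusted p = 0.0535) and of cyclin B1 (Ccnb1, 1.86 ± 0.45, adjusted p = 0.0674). Topoisomerase Top2a had 1.40 ± 0.37 (adjusted p = 0.0914). Mki67, the marker Ki-67, was at 17.5 to 44.4 CPM in KPF and 53.9, 73.7 and 65.3 in KPYYF (0.95 ± 0.35, adjusted p = 0.201). The part of dividing cells in the values of the 54 genes was not tested.

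Markers of cell types also differed between the libraries. Epithelial markers, 9 genes of which 9 were tested, were all below 0, and 3 of the 9 fell at the adjusted threshold. Of all genes tested, 0.794% did. Their sums were 3580 to 12000 CPM in KPF and 2150, 648 and 891 in KPYYF. The defining markers of the labelled cell type were thus present in both groups and lower in KPYYF. Per the study, Tm+Yap- cells had higher markers of epithelial to mesenchymal transition and lower genes of epithelial differentiation and cell junctions. A change in the share of tumor cells was not tested. The sums of 10 fibroblast markers overlapped, at 410 to 5540 CPM in KPF and 1410, 3320 and 1240 in KPYYF. The single fibroblast genes diverged, with 6 above 0 and 4 below, from -2.65 to 2.90, and none past the adjusted threshold. Immune markers were at 473 to 8420 in KPF and 420 to 745 in KPYYF, and acinar markers at 64.4 to 19200 and 70.2 to 5320. The 9 immune markers tested were all below 0, with a median of -2.15 and none past the adjusted threshold. Of the 7 acinar markers, 3 were above 0 and 4 below, with a median of -0.35. Sums of 4 Schwann cell markers were 18.1 to 97.0 CPM in KPF and 7.36, 0.547 and 4.49 in KPYYF, without overlap, and S100b, the 1 of them that was tested, fell (log2 fold change -3.84, adjusted p = 0.0357). Sums of 6 endothelial markers were 7.20 to 51.6 CPM in KPF and 15.0, 9.29 and 7.01 in KPYYF, and those of 6 islet markers 0.511 to 58.7 and 20.4, 3.28 and 2.63, with medians of -2.43 over the 4 endothelial genes tested and -2.72 over the islet genes and none past the adjusted threshold. The part of these cell types in the values of the 54 genes was not tested. Without KPF 4504s, KPF 4601 and KPYYF 4449, the medians were 0.85 for the replication genes and 0.79 for the repair genes.

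**Figure D5:**
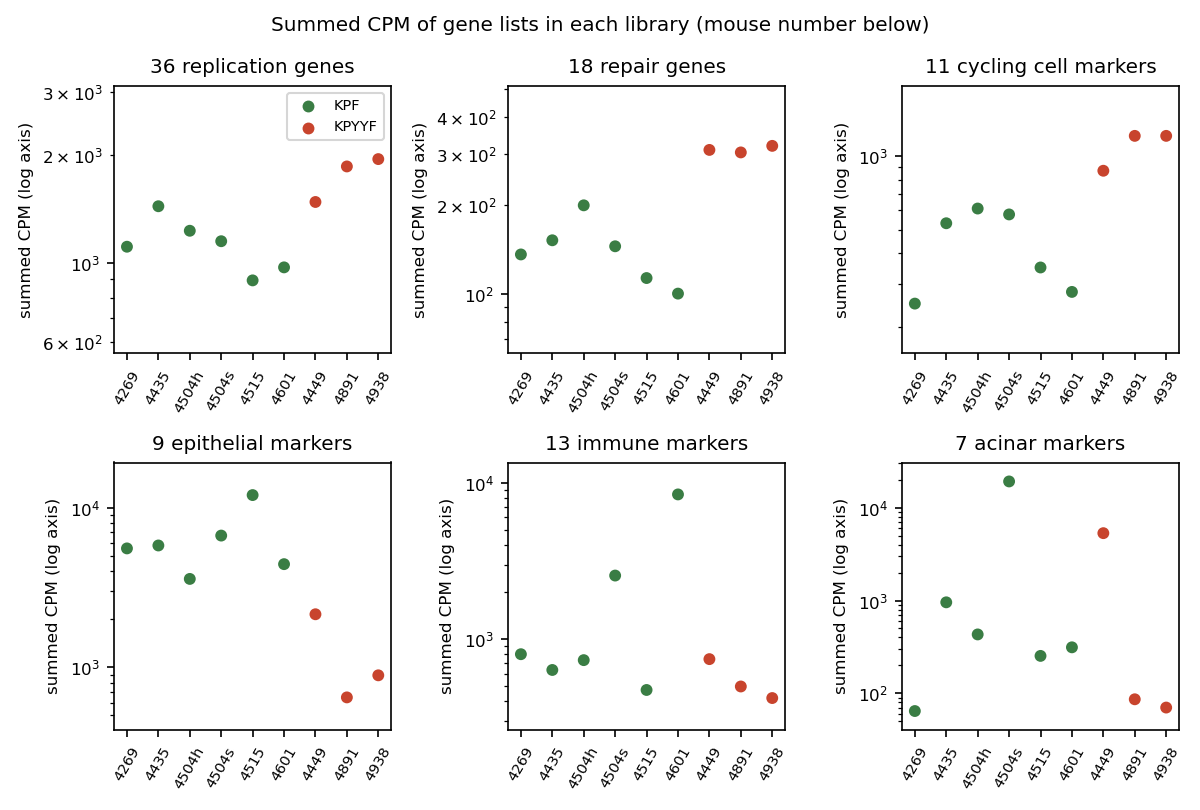
Summed CPM (vertical axes, log scale) of the replication and repair genes and of 4 marker lists in each library (horizontal axes, mouse numbers), KPF in green and KPYYF in red. KPYYF libraries lie above all KPF libraries for the replication genes, the repair genes and the cycling cell markers, and below them for the epithelial markers, while the immune and acinar sums are high in single libraries.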

How the data were processed

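RNA of FACS-sorted PDAC cells was measured in 6 KPF and 3 KPYYF libraries. Files deposited by the authors hold raw counts per Ensembl gene, 1 file a library, without normalization. The submitters' processing notes name STAR, HTSeq and mm10. Versions, annotation and strand setting are not given in the sources used here. The methods describe BeadChip hybridization, but the files hold whole-number counts. Lines that name no gene were left out. They took 58.04 to 62.74% of a library, mostly reads that aligned to several places (43.85 to 53.36%).

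Symbols came from GENCODE M21. The 14105 genes with 100 or more counts in all were tested with edgeR 4.0.16 (TMM, quasi-likelihood test, robust, no covariate) in R 4.3.3, two-sided, with Benjamini-Hochberg adjustment over all of them. TMM factors were 0.833 to 1.08. The common coefficient of biological variation was 0.825. SE is log2 fold change over the root of F. Exact permutation tests used log2 CPM (prior count 2), all 84 divisions of the libraries, two-sided. The floor of 3 counts covers counting error only.

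Members and lists were chosen with earlier results of these data known. Values of every library are given for genes past an adjusted p of 0.05, in each arm the 5 smallest p and the largest and smallest log2 fold change, and Mcm2 to Mcm7. From the other pathway lists, the genes with an unadjusted p under 0.05, at most the 4 of smallest p a direction, are named, with Mki67 and Rrm2 (1 further gene of this rule is not reported here). Alternatives were DESeq2 1.42.0, limma-voom 3.58.1, RLE and upper quartile factors, other filters, summed 4504 libraries, libraries with at least 1000 Xist counts, each library left out and, chosen after seeing the data, 3 libraries left out. The edgeR, DESeq2 and limma-voom fits were tested on simulated counts with 200 genes changed. The simulation used the means of these data and the gene dispersions that edgeR estimated from them. Of the genes called, 5.68% were false with edgeR, 36.61% with DESeq2 and 7.81% with limma-voom. The edgeR fit recovered 26.3% of 4-fold changes and 58.6% of 16-fold ones. With no gene changed, edgeR and limma-voom called 0 genes and DESeq2 called 16. Promoter windows are RefSeq's (GRCm38.p6, the assembly of mm10).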

Additional observations from a re-analysis of the deposited data

Results flagged for a closer look

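Among the 6 KPF libraries, 1 library lay far from the rest for 3 of the 54 genes and for 3 marker sums, by the ratio of its gap to the nearest library to the whole range, taken on the log2 scale (log2 CPM of a gene, log2 of a summed CPM), which passed Dixon's 95% critical value. Chance alone flags about 1 in 20 such groups, so that the 3 flagged among 54 genes are about as many as chance would give. That reading does not cover the 3 marker sums, which were flagged among far fewer lists. Gmnn was low in KPF 4601 (10.8 CPM, others 25.2 to 37.5, ratio 0.678). Pola2 was high in KPF 4435 (21.2 CPM, others 3.21 to 5.21, ratio 0.749), and so was Pold1 (54.1 CPM, others 13.4 to 20.4, ratio 0.698). The endothelial marker sum was low in KPF 4269 (7.20 CPM, others 33.8 to 51.6, ratio 0.785), the islet marker sum in KPF 4504h (0.511 CPM, others 11.7 to 58.7, ratio 0.661) and the Schwann cell marker sum in KPF 4435 (18.1 CPM, others 55.1 to 97.0, ratio 0.663).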

How the results depend on the processing

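The medians of both arms stayed above 0 in all 18 alternatives, at 0.55 to 0.85 for replication and 0.79 to 1.27 for repair, and no gene of either arm was lower at either threshold in any of them. Counts past the adjusted threshold were small and moved. For replication (2 genes) the count was 1 with upper quartile factors and with limma-voom (Cdt1), with 4504h and 4504s summed (Pold2) and without the immune-high and acinar-high libraries (Lig1), 0 within the libraries with many Xist counts, and 0 to 1 when 1 library was left out. For repair (1 gene) it was 3 with DESeq2, 0 with 4504h and 4504s summed, 0 within the libraries with many Xist counts and 0 without the immune-high and acinar-high libraries, and 0 to 1 when 1 library was left out. At an unadjusted p under 0.05, the replication count of 9 was 4 to 12 when 1 library was left out (4 without KPYYF 4938), and the repair count of 3 was 5 with limma-voom. DESeq2 called 269 genes higher and 928 lower over all genes, against 43 and 112 with edgeR. In simulated data 36.61% of the DESeq2 calls were false, against 5.68% of those of edgeR. The simulation used dispersions estimated by edgeR, and DESeq2 called 183 genes in it. These false shares therefore do not carry over to the calls in the data. Without a filter on low counts 88 and 219 were called. Within the libraries with many Xist counts 6 and 31 were called, and 53 of the 54 genes were tested.

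Of 1288 values of 72 genes, 1198 kept direction and side of the threshold, 44 lost the threshold, 19 gained it and 27, in 11 genes, changed sign. Orc1 was at -0.10 both within the libraries with many Xist counts and without the immune-high and acinar-high libraries, where Gmnn was at -0.04, Pola2 at 0.04, Prim2 at -0.09 and Rrm2 at -0.34. Fancd2 was at -0.25 within the libraries with many Xist counts. Mcm8 was at 0.01 with DESeq2, 0.01 with RLE, 0.02 with upper quartile factors, 0.02 without a filter, 0.44 with limma-voom, 0.10 with 4504h and 4504s summed and 0.24 without the immune-high and acinar-high libraries. With 1 library left out, ranges that crossed 0 were -0.04 to 0.25 for Gmnn, -1.02 to 0.04 for Gins4, -1.76 to 0.48 for Pola2, -0.34 to 0.68 for Pcna, -0.89 to 0.76 for Chaf1b, -0.66 to 0.58 for Mcm8, -0.20 to 1.07 for Timeless and -0.06 to 0.77 for Rrm2. The cause was not tested. No paired analysis was possible because the groups share no mouse number. With 3 KPYYF libraries and a coefficient of variation of 0.825, changes of single genes with few counts were often not detectable.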

Other observations

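Ratios within a library between partners in 1 complex were looked at after the values were seen and carry no test. The ratio of Mcm5 to Mcm2 CPM was 0.101 to 1.66 in KPF and 2.62 to 3.36 in KPYYF, and that of Pold2 to Pold1 was 0.225 to 1.56 in KPF and 3.40 to 17.0 in KPYYF. Both were separate between the groups, but each set a gene above 0 against a partner below 0, which favors such a separation. The ratio of Cdt1 to its inhibitor Gmnn was 0.743 to 2.58 in KPF and 2.24 to 4.02 in KPYYF, where KPF 4601, with its low Gmnn, overlapped. Tipin to Timeless was 0.558 to 7.34 in KPF and 1.90 to 12.1 in KPYYF. Cdt1 to Cdc6, which load the helicase together, was 2.88 to 27.1 in KPF and 2.94 to 5.25 in KPYYF, with overlap. A ratio within a library shows unequal change and not which partner changed, and 3′ end counts do not compare the amounts of the partners.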
